A study of Rattus norvegicus with 20 samples.

Results

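The 9 genes described here, of glucose production and glucose handling, were followed in rat liver on 4 diets. They are Pck1, G6pc1, Fbp1, Pc, Pklr, Pdk4, Igfbp1, Foxo1 and Ppargc1a. Of these, 8 are among the 14217 genes that the array annotation names singly, and G6pc1 is named only jointly. All 9 were chosen by gene symbol for their place in the pathway, with earlier results of these data known. Liver RNA came from 20 female Sprague Dawley rats, 1 array per rat and 5 rats per diet, after 24 days of feeding. The control rats ate an unsupplemented Harlan Teklad mash, on which the 3 other diets were built. For BNF, each kg of diet carried 1650 mg of 5,6-benzoflavone, which binds and activates the aryl hydrocarbon receptor (AhR). For D3T it carried 600 mg of the unsubstituted dithiolethione ring, and for OLT 500 mg of oltipraz, that ring with methyl and pyrazinyl substituents. Dithiolethiones are known activators of the transcription factor Nrf2. Age, the hour of death and the time since the last meal are not given in the sources used here, and each group is of 1 sex, strain, dose and time.

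The liver makes glucose from lactate, amino acids and glycerol when food is absent, and stores or burns it when food is present. Pyruvate carboxylase (Pc) and phosphoenolpyruvate carboxykinase (Pck1) carry pyruvate around the irreversible last step of glycolysis, fructose bisphosphatase (Fbp1) reverses the phosphofructokinase step, and the catalytic subunit of glucose-6-phosphatase (G6pc1) releases free glucose. Liver pyruvate kinase (Pklr) runs the opposing glycolytic step, and pyruvate dehydrogenase kinase 4 (Pdk4) keeps pyruvate out of oxidation. Glucagon and glucocorticoids raise, and insulin lowers, transcription of Pck1, G6pc1 and Igfbp1, in part through the forkhead factor Foxo1 and its coactivator Ppargc1a.

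The bases before the start of transcription of these 3 hormone-controlled genes are shown because that control is known to act partly through elements near the start, of which each window held some and not others. Sequences are from RefSeq (build GRCr8), 250 bases ending just before the gene's start, 5′ to 3′ along the gene, with the motifs searched for in capitals. RefSeq's table held 8 of the 9 genes.

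G6pc1 (chr10:86807409-86807658, plus strand): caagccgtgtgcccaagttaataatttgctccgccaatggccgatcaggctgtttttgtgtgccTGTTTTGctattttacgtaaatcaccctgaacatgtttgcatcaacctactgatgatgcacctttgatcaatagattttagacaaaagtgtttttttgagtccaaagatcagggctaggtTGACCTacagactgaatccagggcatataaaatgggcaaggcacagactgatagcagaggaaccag

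Igfbp1 (chr14:86261027-86261276, plus strand): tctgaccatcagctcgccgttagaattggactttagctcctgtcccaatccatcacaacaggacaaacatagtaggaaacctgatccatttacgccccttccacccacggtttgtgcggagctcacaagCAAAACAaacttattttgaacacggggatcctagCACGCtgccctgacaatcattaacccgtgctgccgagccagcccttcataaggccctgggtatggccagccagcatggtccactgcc

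Pck1 (chr3:182348322-182348571, plus strand): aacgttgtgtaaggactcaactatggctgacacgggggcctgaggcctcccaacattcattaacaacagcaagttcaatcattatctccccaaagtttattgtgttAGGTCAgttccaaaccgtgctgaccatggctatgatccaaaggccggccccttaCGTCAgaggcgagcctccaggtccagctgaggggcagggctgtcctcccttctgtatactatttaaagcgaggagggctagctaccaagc

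The letters searched, on both strands, were TGACGTCA (cAMP response element) with its core TGACG (cAMP core), CAAAACA (insulin response sequence), GTAAACA (forkhead), AGAACA (glucocorticoid receptor core), CACGTG (E-box), AGGTCA (nuclear receptor core), TGACNNNGC (antioxidant response element, the letters known for Nrf2) and GCGTG (AhR core). TGACG lies within TGACGTCA, and the others are counted separately. The insulin response letters stood in G6pc1 (bases -186 to -180, on the opposite strand) and Igfbp1 (-121 to -115), that is in 2 of 8 members against 5.46% of 33469 promoters. In Pck1 the cAMP core lay at -90 to -86 on the opposite strand, and in Ppargc1a the full cAMP element at -181 to -174. That core was present in 18.2% of all promoters and the full element in 1.59%. The AhR letters were found before Fbp1, Foxo1 and Igfbp1 (25.9% of all promoters) and the antioxidant letters before Fbp1, Foxo1 and Ppargc1a (10.1%). Nuclear receptor letters were found before G6pc1 and Pck1 (14.1%), while the forkhead, glucocorticoid receptor and E-box letters were in none of the 8 windows (3.21%, 17.5% and 5.59% of all). Pklr and Pdk4 held none of the 9 motifs. A match of letters is a description and no evidence that a factor binds.

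The array has 18 probe sets, its units of measurement, for the 9 genes. Of these, 14 name 1 gene, and 10 of the 14 passed the filter used here (log2 value above 4 in at least 5 arrays), so that 8 genes had a probe set of their own, the brightest kept one standing for the gene. G6pc1 has 4 probe sets, each annotated jointly to Psme3, Aoc3 and G6pc1, and RefSeq lists Psme3 as an older synonym of G6pc1. The probe set built on the RefSeq transcript of G6pc1 is called the G6pc1 probe set below, with that joint annotation as its limit, and is left out of the counts of members. A second of the 4 followed it closely over the 20 arrays (r = 0.98), whereas the remaining probe sets did not (r = -0.33 and -0.14). Such r values describe arrays that share diets and chip. Values are on the log2 scale, on which a difference of 1 is a doubling, and cannot be set against each other between genes.

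Tissue and arrays were looked at first. The measured genes of a list, to which all its counts refer, are those with a probe set naming them alone that passed the filter. All 9 measured hepatocyte markers were present, their summed level lying between 17.87 and 18.30 (log2) in the 20 arrays. The array labelled D3T 5 had a mean correlation of 0.968 with its own group and 0.979 with the OLT arrays. Likewise the array labelled OLT 1 correlated more with the D3T arrays (0.966) than with its own (0.963). Results are given as labelled, and also without these 2 arrays for calls of members and counts of gene lists that change. Medians of the D3T and OLT arrays lay 0.15 and 0.17 below control, so small decreases depend on scaling. Changes are stated as deposited, and no member's called difference turned sign under centring or quantile normalization. In bulk tissue fewer cells of a type and less RNA per cell cannot be told apart.

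The G6pc1 probe set was the member most changed by BNF, about 4-fold lower than control, and it was lower under BNF than under either dithiolethione. D3T raised Pdk4 and lowered Pc and, less firmly, Fbp1, and 1 of 2 Pklr probe sets rose. OLT changed no member by the test, its differences from control lying between -0.49 and 0.59. Pklr and Igfbp1 were lower under BNF than under both dithiolethiones, and Pdk4 lower than under D3T. Less firmly, Pdk4 and Pck1 were lower under BNF than under OLT, calls lost with no filter and without single arrays.

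**Figure D1:**
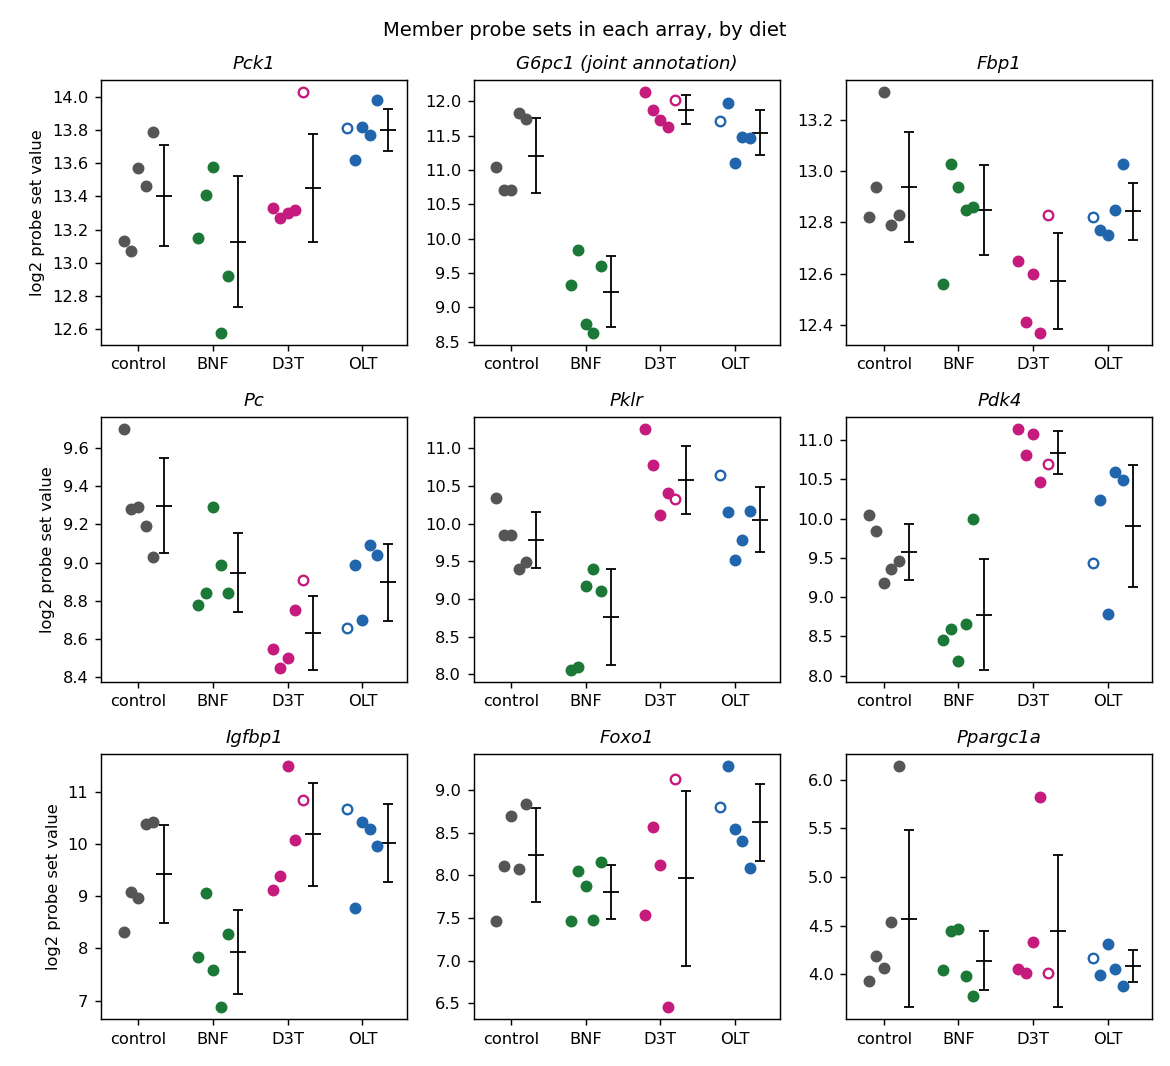
Log2 probe set value of each of the 9 genes (one panel each, own vertical axis) in each of the 20 arrays, by diet. Points are arrays, open points are the arrays labelled D3T 5 and OLT 1, and the bar beside each group is the mean ± SD (n = 5). The 5 BNF values of the G6pc1 probe set (8.63 to 9.83) lie below all others, and the 5 D3T values of Pdk4 (10.47 to 11.14) lie above all control values.

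The terminal enzyme of glucose release is described first. In control liver the G6pc1 probe set (gene ID 25634) read 11.04, 10.71, 10.71, 11.83 and 11.74. Under BNF it read 9.32, 9.83, 8.76, 8.63 and 9.60. Every BNF array was thus below every control array. Under D3T the values were 12.14, 11.88, 11.73, 11.63 and 12.02, and under OLT 11.72, 11.97, 11.10, 11.48 and 11.46. The BNF mean was 9.23 ± 0.52 against 11.20 ± 0.54 (SD, n = 5 each), 3.94-fold lower, a log2 difference of -1.98 (SE 0.25, adjusted p = 1.01e-04). In absolute size this ranked 47 among 12947 tested probe sets. The second probe set that followed it fell by 2.39 (SE 0.36, adjusted p = 6.93e-04), whereas the other jointly annotated probe sets gave 0.18 and 0.17 (adjusted p = 0.785 and 0.818). D3T gave 0.67 (95% interval 0.15 to 1.20, adjusted p = 0.0915) and OLT 0.34 (-0.19 to 0.87, adjusted p = 0.433). The D3T difference was called without control 4 (0.83, adjusted p = 0.0469) and after centring (0.82, adjusted p = 0.0319).

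The enzymes that feed the pathway moved otherwise. Pck1 (gene ID 362282), the cytosolic carboxykinase that controls entry from oxaloacetate, read 13.13, 13.07, 13.57, 13.46 and 13.79 in control liver and 13.15, 13.41, 13.58, 12.58 and 12.92 under BNF. D3T arrays gave 13.33, 13.27, 13.30, 13.32 and 14.03, and OLT arrays 13.81, 13.62, 13.82, 13.77 and 13.98. The array labelled D3T 5 stands above the other D3T values, at the level of the OLT arrays. No comparison with control was called: BNF gave -0.28 (95% interval -0.66 to 0.10), D3T 0.05 (-0.33 to 0.42; -0.10 with D3T 5 and OLT 1 left out) and OLT 0.39 (0.02 to 0.77, adjusted p = 0.204).

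Pc (gene ID 25104) starts the route from pyruvate in mitochondria. It read 9.70, 9.28, 9.29, 9.19 and 9.03 in control and 8.55, 8.45, 8.50, 8.75 and 8.91 under D3T, so that these groups did not overlap. BNF values were 8.78, 8.84, 9.29, 8.99 and 8.84, and OLT values 8.66, 8.99, 8.70, 9.09 and 9.04, both overlapping control. Pc fell by 0.67 under D3T (SE 0.14, 1.59-fold, adjusted p = 0.00429), from 9.30 ± 0.25 to 8.63 ± 0.19. OLT gave -0.40 (-0.70 to -0.11, adjusted p = 0.0935) and BNF -0.35 (-0.64 to -0.06, adjusted p = 0.202). Pc kept its call under D3T in every alternative run.

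Fbp1 (gene ID 24362), which takes fructose bisphosphate back towards glucose, read 12.82, 12.94, 13.31, 12.79 and 12.83 in control and 12.65, 12.41, 12.60, 12.37 and 12.83 under D3T. These groups overlap through the array labelled D3T 5. BNF values were 12.56, 13.03, 12.94, 12.85 and 12.86, and OLT values 12.82, 12.77, 12.75, 12.85 and 13.03. Under D3T it fell by 0.36 (SE 0.11, 1.29-fold, adjusted p = 0.0395), and gave -0.43 (adjusted p = 0.0187) when the arrays D3T 5 and OLT 1 were left out. The call was lost after centring (-0.22, adjusted p = 0.329), with no filter, without the variance trend, with only these groups in the fit (adjusted p = 0.0838, 0.0551 and 0.0905), and without any one of control 2, control 3, control 5, BNF 4, D3T 2, D3T 3 and D3T 4 (adjusted p from 0.0501 to 0.101). BNF and OLT each gave -0.09 (-0.33 to 0.14).

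Pklr (gene ID 24651) carries the opposing step of glycolysis and is known to rise with carbohydrate intake. Its brighter probe set read 10.34, 9.85, 9.85, 9.40 and 9.49 in control and 8.06, 8.09, 9.17, 9.40 and 9.10 under BNF, the highest BNF array reaching the lowest control. D3T values were 11.26, 10.78, 10.12, 10.41 and 10.33, and OLT values 10.65, 10.16, 9.52, 9.78 and 10.17. BNF gave -1.02 (SE 0.29, 2.03-fold lower, adjusted p = 0.0557) and D3T 0.79 (SE 0.29, 1.73-fold higher, adjusted p = 0.0814), neither of them called. The second Pklr probe set correlated with the first at r = 0.90 over the 20 arrays. It rose by 1.03 under D3T (SE 0.26, adjusted p = 0.0141), with every D3T array above every control array. Under BNF it gave -0.86 (adjusted p = 0.0775) and was not called, though every BNF array was below every control array. Here the probe sets differ in the call and not in direction. With the mean of both probe sets Pklr was called lower under BNF (-0.94, adjusted p = 0.0401) and higher under D3T (0.91, adjusted p = 0.0218). The brighter probe set alone was called higher under D3T after centring (0.94, adjusted p = 0.0241) and quantile normalization (0.82, adjusted p = 0.0465). Under BNF it was called after quantile normalization (-0.96, adjusted p = 0.0454), with the stricter filter (adjusted p = 0.0459) and with array weights (-0.80, adjusted p = 0.0291). The BNF difference of the brighter probe set was also called without BNF 3, BNF 4, D3T 1 or OLT 1 (adjusted p from 0.0361 to 0.0478) and with D3T 5 and OLT 1 both left out (adjusted p = 0.0496).

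Pdk4 (gene ID 89813) phosphorylates and so switches off pyruvate dehydrogenase, and is known to be high in fasting. It read 10.05, 9.84, 9.18, 9.36 and 9.46 in control and 11.14, 10.81, 11.08, 10.47 and 10.69 under D3T. The D3T arrays were all above the control arrays. Under BNF 4 arrays lay between 8.19 and 8.66 and BNF 5 at 9.99, while OLT arrays spread widely, at 9.43, 10.23, 8.79, 10.59 and 10.49. Pdk4 rose by 1.26 under D3T (SE 0.34, 2.40-fold, adjusted p = 0.0196), from 9.58 ± 0.36 to 10.84 ± 0.28. The call was lost without D3T 3 (1.20, adjusted p = 0.0525) and with the mean of both Pdk4 probe sets (1.09, adjusted p = 0.0590), the dimmer of which read between 3.82 and 7.21 and gave 0.93 alone (adjusted p = 0.259). BNF gave -0.80 (-1.50 to -0.09, adjusted p = 0.233), called only with array weights (-0.93, adjusted p = 0.0141), and OLT 0.33 (-0.37 to 1.04, adjusted p = 0.582).

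Igfbp1 (gene ID 25685), a secreted binding protein of insulin-like growth factors that insulin represses, was the most variable member among rats of one diet. Control values were 8.31, 9.07, 8.96, 10.39 and 10.42, and BNF values 7.84, 9.06, 7.59, 6.88 and 8.27. D3T arrays read 9.12, 9.38, 11.49, 10.08 and 10.84, and OLT arrays 10.66, 8.77, 10.42, 10.28 and 9.95. Every diet overlapped control. BNF gave -1.50 (SE 0.51, 2.83-fold lower, adjusted p = 0.124), D3T 0.75 (-0.32 to 1.83, adjusted p = 0.384) and OLT 0.59 (-0.49 to 1.66, adjusted p = 0.518). The BNF difference was larger than that of 99.2% of probe sets and was still not called, except with array weights (-1.96, adjusted p = 0.00534).

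The regulators Foxo1 and Ppargc1a gave no call in any of the 6 comparisons as fitted, though with array weights Foxo1 was called lower under BNF than under OLT (-1.17, adjusted p = 0.0106, against -0.82 and 0.192 without weights). Foxo1 (gene ID 84482) read from 7.46 to 8.83 in control, 7.47 to 8.16 under BNF, 6.46 to 9.13 under D3T and 8.09 to 9.28 under OLT. Its differences from control were -0.43 (-1.23 to 0.36), -0.27 (-1.07 to 0.52) and 0.38 (-0.41 to 1.18) for BNF, D3T and OLT. Its other probe sets, at 1.92 to 3.29, did not pass the filter. Ppargc1a (gene ID 83516) lay at the background level in nearly all arrays, with medians of 4.19, 4.04, 4.05 and 4.05 in control, BNF, D3T and OLT, and single values of 6.14 (control 5) and 5.82 (D3T 4). Its other probe sets read between 2.28 and 3.30. Its differences from control were -0.43, -0.13 and -0.49 (adjusted p = 0.665, 0.856 and 0.434), and at this level a change could not be measured.

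**Figure D2:**
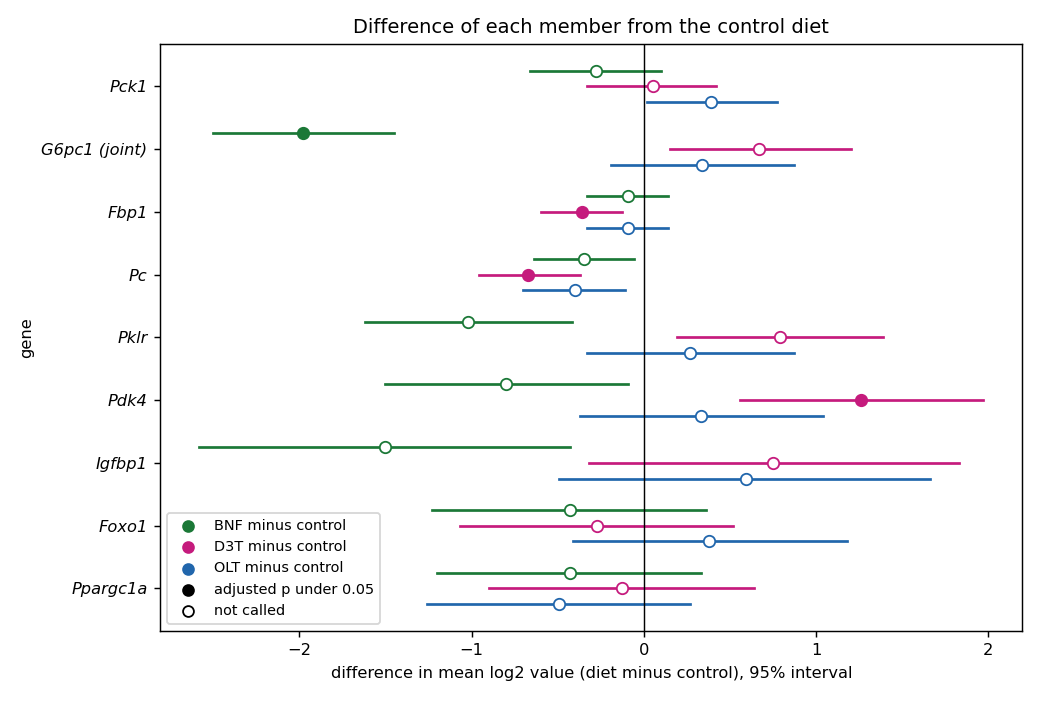
Difference in mean log2 value from the control diet for the 9 genes, with 95% intervals from limma, for BNF, D3T and OLT (5 arrays each). Filled points have an adjusted p under 0.05. The G6pc1 probe set under BNF at -1.98 and Pdk4 (1.26), Pc at -0.67 and Fbp1 at -0.36 under D3T are filled.

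Against control, D3T called 3 of the 8 members with a probe set of their own, 1 higher and 2 lower, where 11.6% of all tested probe sets were called (4.63% higher and 6.97% lower), and the same 3 with D3T 5 and OLT 1 left out (13.2% of all). The D3T and control arrays did not overlap for Pc and Pdk4 (9.77% of all probe sets). Under BNF and OLT no member with its own brightest probe set stood clear of control (6.77% and 6.59% of all). After centring the members split into 2 higher (Pdk4 and Pklr) and 1 lower (Pc), and after quantile normalization into 2 and 2. Of all D3T calls 39.9% were higher, and 63.1% after centring. BNF called 0 of 8 by limma (4 at an unadjusted p under 0.05, as were 15.9% of all), where 3.48% of all were called (1.46% higher and 2.02% lower), and 1 of 8, Pklr, with D3T 5 and OLT 1 left out (4.29% of all). OLT called 0 of 8 (2 at an unadjusted p under 0.05, as were 22.2% of all), where 6.38% of all were called (1.53% higher and 4.85% lower), and 0 of 8 with D3T 5 and OLT 1 left out (4.59% of all). The members' median differences were -0.43, -0.04 and 0.30 under BNF, D3T and OLT, beside -0.05, -0.02 and -0.04 over all tested probe sets. With so few members these counts describe the list and do not set it apart. Without D3T 3 the D3T count was 1, and without D3T 1, OLT 1, BNF 3 or BNF 4 the BNF count was 1.

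BNF was next set against the dithiolethiones. It was lower than D3T for Pklr (-1.82, SE 0.29, adjusted p = 3.03e-04), for Pdk4 (-2.06, SE 0.34, adjusted p = 4.07e-04) and for Igfbp1 (-2.25, SE 0.51, adjusted p = 0.00573), 3 of 8 members (14.9% of all tested were called, 6.24% higher and 8.70% lower). In all 3 the groups did not overlap (12.2% of all), and all 3 were called with D3T 5 and OLT 1 left out (15.2% of all). For the G6pc1 probe set BNF was 6.29-fold lower than D3T (-2.65 on the log2 scale, SE 0.25, adjusted p = 1.34e-06). BNF was lower than OLT for Pck1, Pklr, Pdk4 and Igfbp1, 4 of 8 members (9.62% of all, 5.33% higher and 4.29% lower), also with D3T 5 and OLT 1 left out (7.89% of all). The groups did not overlap for Pck1 and Pklr (8.51% of all). The differences were -0.67 for Pck1 (adjusted p = 0.0232), -1.29 for Pklr (adjusted p = 0.00742), -1.13 for Pdk4 (adjusted p = 0.0396) and -2.09 for Igfbp1 (adjusted p = 0.0138), beside -2.32 for the G6pc1 probe set (adjusted p = 1.06e-05). The Pdk4 call was lost without any one of BNF 1, BNF 2, BNF 3, BNF 4, OLT 2, OLT 4 and OLT 5 (adjusted p from 0.0705 to 0.102), with no filter (adjusted p = 0.0906), with only these groups in the fit (adjusted p = 0.133) and with the mean of its probe sets (-0.88, adjusted p = 0.139). The Pck1 call was lost without BNF 4 or BNF 5 (adjusted p = 0.0682 and 0.0556) and with no filter (adjusted p = 0.0511). The BNF comparisons with D3T and OLT share the BNF arrays and are not separate evidence.

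D3T and OLT, the parent ring and its methyl and pyrazinyl derivative, were fed at unequal doses (600 and 500 mg per kg of diet), so their values stand side by side as fed. Limma called 0 of 8 members between them (2 at an unadjusted p under 0.05), and 0 of all tested probe sets, which is 0% (1385, or 10.7%, at an unadjusted p under 0.05). No member's groups stood clear of each other (0.981% of all). OLT minus D3T was -0.93 for Pdk4 (95% interval -1.63 to -0.23, adjusted p = 0.308), -0.52 for Pklr (-1.13 to 0.08), -0.33 for the G6pc1 probe set (-0.86 to 0.19) and -0.16 for Igfbp1 (-1.24 to 0.91). It was 0.35 for Pck1 (-0.03 to 0.73), 0.27 for Fbp1 (0.04 to 0.51, adjusted p = 0.377), 0.27 for Pc (-0.03 to 0.56) and 0.66 for Foxo1 (-0.14 to 1.46). These intervals leave room for differences of the size seen against control. With D3T 5 and OLT 1 left out, 549 probe sets were called (4.24%) and still none of the members, with -0.85 for Pdk4 (adjusted p = 0.272) and 0.35 for Fbp1 (adjusted p = 0.133). Those arrays were picked for their likeness to the other dithiolethione group. Leaving them out thus tends to widen the gap between D3T and OLT, so the rise in calls is no separate evidence of a difference.

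Members differed widely in how much they varied between rats of the same diet. The SD within diets was 0.88 for Igfbp1, more than in 97.9% of tested probe sets, and 0.18 for Fbp1, more than in 16.4%, where the median over all tested was 0.29. Diet accounted for 88.1% of the variance of the G6pc1 probe set, 70.1% for Pklr, 67.8% for Pdk4 and 60.7% for Pc, against a median of 26.9%. For Foxo1 and Ppargc1a it accounted for 22.5% and 12.0%.

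Between members, the G6pc1 probe set and Igfbp1 had r = 0.79 over the 20 arrays and r = 0.40 once each diet's mean was taken away. Pklr and Pdk4 had r = 0.76 and, without the diet means, 0.28. Pklr and Igfbp1, known as feeding-driven and fasting-driven genes, had r = 0.38 over all arrays and r = -0.65 within diets. Pck1 and Igfbp1 kept a positive r within diets (0.50). All these r values rest on 20 arrays that share 4 diet means, and are descriptions.

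**Figure D3:**
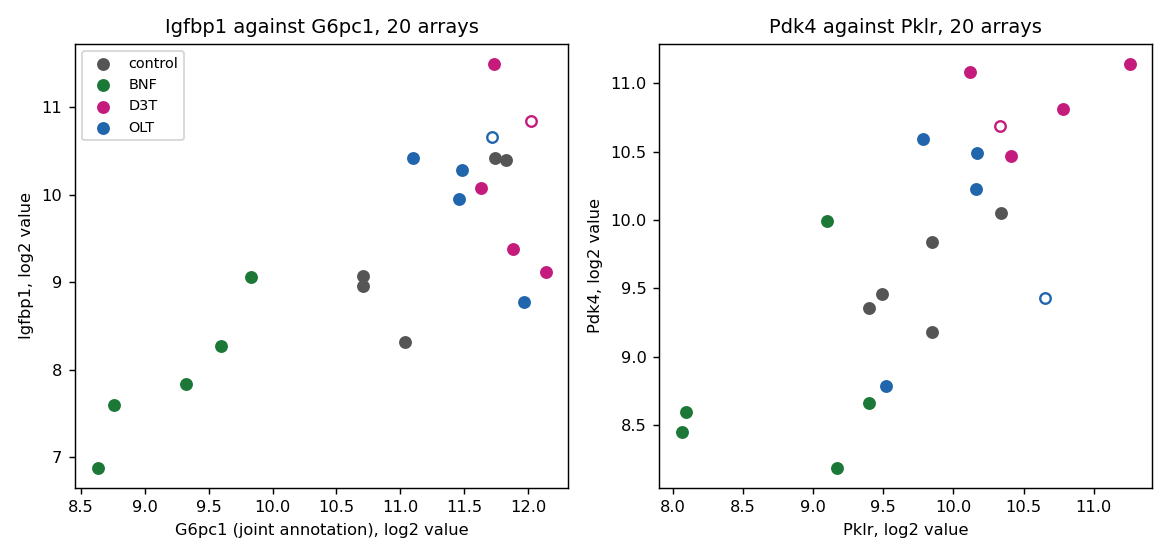
Log2 values of Igfbp1 against the G6pc1 probe set (left) and of Pdk4 against Pklr (right), 1 point per array, coloured by diet, with the arrays labelled D3T 5 and OLT 1 open. On the left the BNF arrays lie apart at G6pc1 values of 8.63 to 9.83. On the right the D3T arrays lie towards the upper end of both genes, with OLT arrays among them in both genes and the array control 1 in Pklr.

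Other genes with the most similar pattern over the 20 arrays were Cyp2c22 (r = 0.933) and Aspg (r = 0.901) for the G6pc1 probe set, Hyi (r = 0.930) and Abtb2 (r = 0.902) for Pklr, and Asap2 (r = 0.928) and Znrf2 (r = 0.922) for Pdk4. For Pc they were Tyw5 (r = 0.880) and Sdc1 (r = 0.879), for Fbp1 Zyx (r = 0.859) and Vamp8 (r = 0.806), for Igfbp1 Tcf7l1 (r = 0.816) and Skic2 (r = 0.792), and for Pck1 N4bp2l1 (r = 0.744) and Bcar1 (r = 0.71). Around the diet means, Pck1 was closest to N4bp2l1 (r = 0.797) and to the clock and glucocorticoid-responsive gene Per1 (r = 0.788), and Pdk4 to Rbck1 (r = 0.884) and the clock gene Clock (r = 0.882). There the G6pc1 probe set was closest to Mrpl21 (r = 0.688) and Nipal2 (r = 0.665), Pklr to Apip (r = 0.863) and Hyi (r = 0.796), and Igfbp1 to Lrrfip2 (r = 0.672) and Egr1 (r = 0.640). For Pc they were Sult2a6 (r = 0.872) and Tyw5 (r = 0.829), and for Fbp1 Vtn (r = 0.845) and Zyx (r = 0.816). Foxo1 was most like Xist (r = 0.904) and Ralgps2 (r = 0.896) over the arrays and Mpv17l (r = 0.963) and Gigyf1 (r = 0.938) around the diet means. Ppargc1a, near background, was most like Bcl6b (r = 0.839) and B3galt4 (r = 0.805), which also led around the diet means (r = 0.890 and 0.913).

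Genes next to the members in the pathway were read from lists. The first list held 13 measured genes, mostly of the reversible steps, with the translocase Slc37a4 and the mitochondrial carboxykinase Pck2 among them. Under BNF 2 fell (the mitochondrial transaminase Got2 at -0.51 and malate dehydrogenase Mdh2 at -0.39). Under D3T 2 fell (lactate dehydrogenase Ldha at -0.81 and aldolase Aldoa at -0.38). Under OLT 1 fell (Aldoa at -0.44), and none rose under any diet. Mdh2 and both Aldoa calls were lost after centring. With D3T 5 and OLT 1 left out 4 fell under BNF, 1 rose and 3 fell under D3T, and none was called under OLT. The list's median was -0.24, -0.07 and -0.05 under BNF, D3T and OLT, the last 2 turning positive after centring. The glucose-6-phosphate translocase Slc37a4, partner of G6pc1, gave -0.55 under BNF, -0.26 under D3T and -0.50 under OLT (adjusted p = 0.0788, 0.343 and 0.0819). Of 13 genes of glucose entry and committed glycolysis on the array only 5 passed the filter. Among these, ketohexokinase (Khk) fell by 0.78 under BNF. Under D3T the glucokinase regulator Gckr rose by 1.23 and the phosphofructokinase Pfkl fell by 0.56, and under OLT none was called (Gckr 1.04, adjusted p = 0.0592) except for 1 higher after centring or quantile normalization.

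The pyruvate dehydrogenase list, which holds the targets and relatives of Pdk4, had 3 of 9 measured genes lower under BNF and none higher. They were the kinase Pdk2 (-1.17, adjusted p = 0.00218), the phosphatase Pdp2 (-1.20, adjusted p = 0.00849) and the pyruvate carrier Mpc2 (-0.53, adjusted p = 0.0106). Under D3T the E1 subunit Pdha1 rose by 0.65 (adjusted p = 0.0138), and 0 of 9 were called under OLT. With D3T 5 and OLT 1 left out the D3T count went from 1 to 4 higher (Pdha1, Pdk1, Pdk2 and Pdhb) and from 0 to 1 lower (Mpc2). Medians were -0.38, 0.18 and -0.06, and the last turned positive after centring.

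Of 10 measured genes of glycogen metabolism, D3T raised 3 (phosphorylase Pygl by 0.83, branching enzyme Gbe1 by 0.77 and the phosphorylase kinase subunit Phkb by 0.93) and lowered 2 (glycogen synthase Gys2 at -1.45 and the glycogen-targeting phosphatase subunit Ppp1r3b at -1.07). OLT raised Pygl by 0.62 and lowered Gys2 (-1.20) and Ppp1r3b (-0.87), the last not called after centring. Under BNF only Pgm1 was called (fell by 0.44, lost after centring). When D3T 5 and OLT 1 were left out, D3T raised 4 and lowered 2, and OLT raised 1 and lowered 1. After centring D3T raised 5. List medians were 0.26, 0.01 and -0.11 under D3T, OLT and BNF.

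Of 12 measured genes that respond to carbohydrate, as Pklr does, 4 fell under BNF, the lipogenic enzymes Acaca (-1.13) and Fasn (-1.41) and the factors Mlxipl (-0.78), known to drive Pklr, and Srebf1 (-0.70). After centring 2 of these calls remained, Acaca and Fasn. D3T raised 7, among them Me1 by 2.61, Pnpla3 by 2.80, Scd by 2.30 and Fasn by 1.87, and lowered Mlx (-0.49, lost after centring). Pnpla3 spread widely under D3T, at 6.24 ± 2.64 (SD). Under BNF and OLT its means were 3.43 and 3.89, below the filter's limit of 4, so the size of its rise is uncertain. OLT raised Me1 by 1.28 and Srebf1 by 1.09. Medians were -0.74, 1.20 and 0.47 under BNF, D3T and OLT. Between BNF and D3T, 9 of the 12 were lower under BNF and none higher. With D3T 5 and OLT 1 left out 5 fell under BNF against control, and Mlx was called higher under BNF than under D3T (0.45, adjusted p = 0.0388) beside 9 lower.

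Of 10 measured glucocorticoid response genes, D3T lowered 7 and raised none, with a median of -1.56. The largest were the metallothionein Mt2A (-4.79), the phosphatase Dusp1 (-2.94), Tsc22d3 (-1.84) and Per1 (-1.61). OLT lowered 4 (Tsc22d3 at -1.83, Dusp1 at -1.79, Fkbp5 at -1.39 and Per1 at -1.13, the last lost after centring), with a median of -1.26. The OLT count was again 4 with D3T 5 and OLT 1 left out, Mt2A (-1.43) being called and Dusp1 (-1.75) not. BNF lowered 1, the serine dehydratase Sds (-3.12), which also feeds gluconeogenesis. Pck1, itself known to respond to glucocorticoids, gave 0.05 under D3T and 0.39 under OLT in the same arrays. Their part in any result of the members was not tested.

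**Figure D4:**
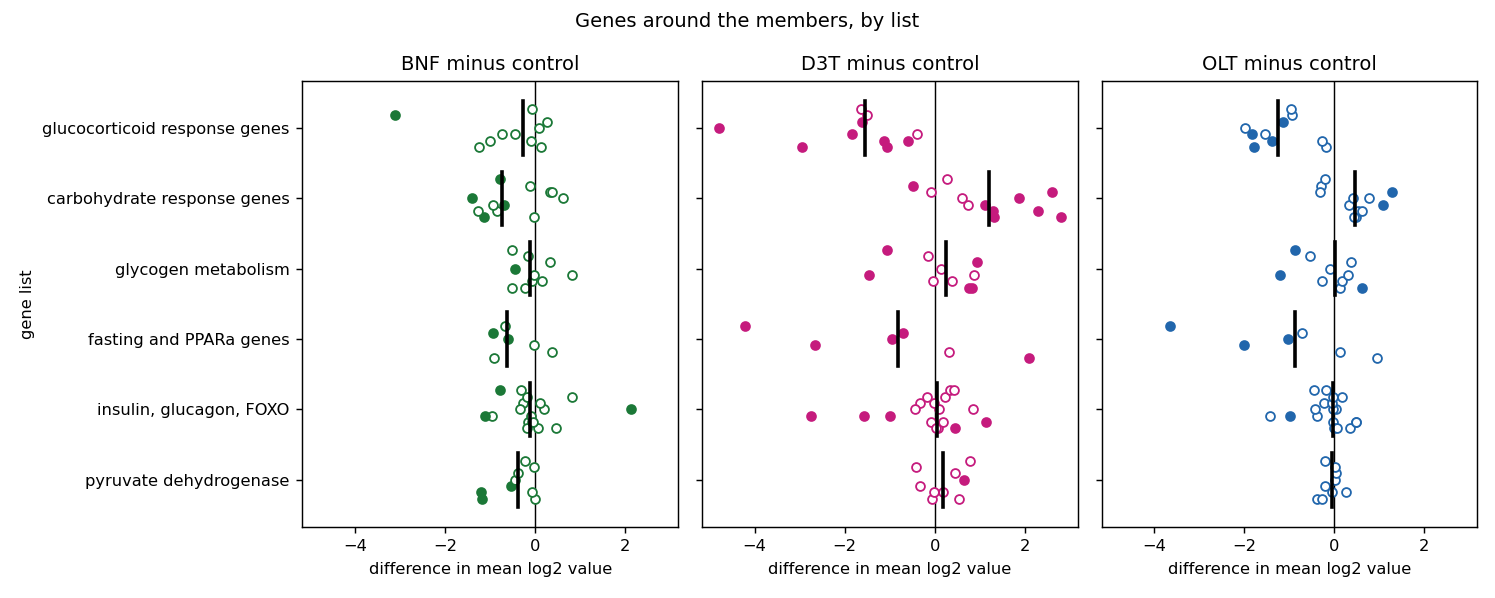
Difference in mean log2 value from control for every measured gene of 6 lists around the members, under BNF, D3T and OLT. Each point is a gene, filled where the adjusted p is under 0.05, and black bars are list medians. Glucocorticoid response genes lie to the left under D3T and OLT (medians -1.56 and -1.26), and carbohydrate response genes to the left under BNF (-0.74) and to the right under D3T (1.20).

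Of 18 measured genes of insulin, glucagon and FOXO signalling, BNF lowered the salt-inducible kinase Sik1 (-1.12) and the glucagon receptor Gcgr (-0.78, lost after centring) and raised the pseudokinase Trib3 (by 2.14). D3T raised 2 (Sesn1 by 1.14 and Akt1 by 0.45) and lowered 3 (the binding protein Igfbp2 at -2.75, Sik1 at -1.57 and Cited2 at -1.0). Sesn1 lay near the background level, with means of 3.75 under BNF and 4.93 under D3T. OLT lowered Sik1 (-0.98), a call lost after centring. D3T raised 3 and lowered 3, and OLT changed none, once D3T 5 and OLT 1 were left out. The insulin receptor Insr gave 0.11, -0.01 and -0.05 under BNF, D3T and OLT, none called. List medians were -0.12, 0.05 and -0.04, the last turning positive after centring.

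Among 11 measured transcription factors of gluconeogenesis, the estrogen-related receptor Esrra fell under every diet (-0.83, -1.02 and -0.57 under BNF, D3T and OLT, the last lost after centring). The small heterodimer partner Nr0b2, a repressor, rose by 2.12 under D3T and by 1.94 under OLT, and Klf15 fell by 0.61 under D3T (lost after centring). In all, 0 rose and 1 fell under BNF, 1 rose and 2 fell under D3T and 1 rose and 1 fell under OLT, with medians of -0.18, -0.27 and -0.09, the last turning positive after centring. After centring D3T raised 2 and lowered 1, and with D3T 5 and OLT 1 left out it raised 1 and lowered 4. Hnf4a gave -0.27 under D3T and -0.23 under OLT (adjusted p = 0.118 and 0.218), and was among those 4 (-0.35, adjusted p = 0.0334). Of 6 fasting and PPARa genes, where Pdk4 is also usually counted, D3T lowered 4 (Vnn1 at -4.22, Cpt1a at -2.65, Cyp4a1 at -0.94 and Plin2 at -0.71, the last lost after centring) and raised Angptl4 by 2.09. OLT lowered 3 (Vnn1 at -3.66, Cpt1a at -2.0 and Cyp4a1 at -1.03), and BNF lowered 2 (Plin2 at -0.94 and Cyp4a1 at -0.60, the latter lost after centring). Under D3T Pdk4 thus differed in direction from Vnn1, Cpt1a, Cyp4a1 and Plin2, and rose as Angptl4 did.

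Several other properties of the samples moved with the same groups. Of 13 measured clock genes D3T lowered 3 (Noct at -5.37, Per2 at -4.39 and Per1 at -1.61) and raised 2 (Npas2 by 1.47 and Nr1d1 by 1.35). Npas2 lay near the background level, with means of 3.08 under BNF and 4.40 under D3T. OLT lowered 4, led by Noct (-2.30) and Per2 (-2.21), and raised Nr1d1 by 0.94, with 0 higher and 3 lower once D3T 5 and OLT 1 were left out, while BNF lowered Nfil3 (-1.52) and raised Nr1d1 by 1.51. Of 10 periportal markers, the zone where gluconeogenic enzymes are known to be highest, BNF lowered 3 (Sds, Gls2 at -1.25 and Hal at -1.13) and raised Hsd17b13 by 0.40. D3T raised 2 of them (Cyp2f4 by 1.14 and Otc by 0.85) and OLT 1 (Otc by 0.50). D3T also lowered 1 with D3T 5 and OLT 1 left out, and OLT raised 2 after centring. The summed level of these 10 lay between 16.07 and 16.22 under BNF and between 16.20 and 16.43 in control. Like the sums given next, it is weighted to the brightest genes of its list, here Ass1, Cps1 and Arg1, none of them called. Under BNF 5 of 9 stellate cell markers rose, with summed levels of 11.78 to 12.53 against 10.88 to 11.41 in control, and 2 of 12 macrophage markers, with 12.69 to 13.81 against 12.00 to 12.79. After centring or quantile normalization 7 of the 12 macrophage markers were called higher under BNF, and 3 with D3T 5 and OLT 1 left out. Under OLT 1 fell (Cd163), and none with them left out. Set against D3T, BNF was higher for 8 of the 12 macrophage markers (median 1.13), and set against OLT for 12 of 12 (1.48). Of all tested probe sets 6.24% and 5.33% were called higher. With D3T 5 and OLT 1 left out the macrophage counts were 8 and 10. For the 9 stellate cell markers the counts were 5 and 4 (5 and 3 with those arrays left out). None of either list was called lower. Summed hepatocyte markers, a sum weighted to the brightest of them, lay at 18.06 to 18.30 under BNF and 17.87 to 18.28 in control. Of these 9 markers 1 was called higher under BNF and 0 under D3T or OLT. After quantile normalization 2 were lower under D3T and 1 under OLT. With D3T 5 and OLT 1 left out 1 was lower under D3T. The erythrocyte markers Hbb and Alas2, the 2 measured, rose by 1.0 and 1.93 under D3T and by 1.10 and 1.84 under OLT, where Hbb was not called with D3T 5 and OLT 1 left out (adjusted p = 0.0518). Of 9 pericentral markers 1 rose under BNF (Cyp1a2, a known AhR target, by 0.99) and 3 fell under D3T, among them glutamine synthetase (Glul at -1.07), and none was called under OLT (4 lower under D3T and 1 higher under OLT with D3T 5 and OLT 1 left out). Of the smaller lists BNF raised 1 of 2 cholangiocyte markers (Aqp1, near the background level, and lost after quantile normalization and with D3T 5 and OLT 1 left out). BNF also raised 1 of 4 genes of the lymphocyte list (Cd74, and 2 after centring), though Cd74 is not confined to lymphocytes. It lowered 1 of 3 pancreas markers (Cpa1 at -2.4) and changed 0 of 6 endothelial markers, whose median was 0.72. Of 2 adipocyte markers D3T lowered 1 (Cidec) and OLT both, neither OLT call remaining after centring. The array named 7 cholangiocyte, 9 lymphocyte, 9 pancreas, 8 endothelial, 7 adipocyte and 4 erythrocyte markers singly. Those not counted here did not pass the filter. The part of these in the members' differences was not tested.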

How the data were processed

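Deposited values were log2 probe set summaries made by the authors with GCRMA (background correction, normalization between arrays and probe summary; per the submitters' processing notes, version not given in the sources used here) from 20 biotin-labelled 1-colour Affymetrix arrays. They were used as deposited, 31042 probe sets between 0.0832 and 16.46, with no detection calls or scan dates, so batches were not looked for. Names came from the platform annotation, updated by gene identifier through RefSeq (20826 probe sets with 1 gene, 436 with several, 9780 with none). Probe sets with log2 above 4 in at least 5 arrays were kept (12947, naming 7837 genes), and a gene is represented by its brightest kept probe set.

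All kept probe sets were fitted in R 4.3.3 with limma 3.58.1 (lmFit, eBayes with trend; 1 mean per diet, all 20 arrays), two-sided. Each p-value printed is Benjamini-Hochberg adjusted over the 12947, called under 0.05, unless said to be unadjusted. The fit was tested on simulated data with independent noise for each probe set. Those data hold no array effects and no arrays unlike their group, so the run does not bear on these. The number of arrays limits precision. Each p-value sets a difference of diet means against the spread between arrays within diets. Nothing beyond the labels says how rats were housed or processed. A difference in housing or processing that went along with diet could not be told apart from diet.

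Members and lists were chosen with earlier results of these data known. Genes named were all members, called list genes (at most 4 per list and comparison, by size) with their list, and for likeness the 2 genes with the highest r. Beyond that rule Slc37a4, Insr, Hnf4a, Gckr under OLT, and Gbe1, Akt1, Mlx, Plin2, Nr1d1, Pdk1 and Pdhb, and genes called in an alternative only, were named after their values were seen. Lists for endothelial, cholangiocyte, lymphocyte, pancreas, adipocyte and pericentral cells were read as well. Replicate numbers are not stated to pair rats. Alternatives were other scalings, filters, variance priors, array weights, fits of 2 groups, a replicate block, probe set means, covariates and left-out arrays.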

Additional observations from a re-analysis of the deposited data

Results flagged for a closer look

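Of 36 combinations of a member and a diet, 4 held an array whose distance to its nearest neighbour, as a share of the group's range, was above the 95% limit of Dixon's test for 5 samples, where chance gives about 1 in 20. The array labelled D3T 5 stood apart for Pck1 in the D3T group (0.916), at 14.03 where the others read 13.27 to 13.33. BNF 5 stood apart for Pdk4 (0.737), at 9.99. Control 5 and D3T 4 stood apart for Ppargc1a (0.722 and 0.824), at 6.14 and 5.82.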

How the results depend on the processing

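No value of a member turned sign where it was called in either fit: of 1722 values under the alternatives, 1676 kept their call or absence of one, 26 lost a call and 20 gained one. The number of members called under BNF against control went from 0 to 1 after quantile normalization, with the stricter filter, with probe set means or with D3T 5 and OLT 1 left out, and to 3 with array weights. Between BNF and OLT it went from 4 to 2 with no filter. Leaving out single arrays gave 0 to 1 (BNF and control), 1 to 3 (D3T and control), 2 to 4 (BNF and OLT) and 3 to 3 (BNF and D3T), and 0 to 0 for OLT against control and against D3T. Over all probe sets, array weights gave 1480, 2885, 2054, 3337, 2767 and 112 calls (BNF, D3T and OLT against control, BNF against D3T and OLT, and OLT against D3T) in place of 450, 1502, 826, 1935, 1246 and 0. With no filter D3T and OLT gave 974 and 457, and OLT gave 382 with only its 2 groups. With the interquartile range as a covariate BNF against D3T gave 3556, BNF against OLT 2568 and OLT against D3T 20. OLT against D3T gave 549 with D3T 5 and OLT 1 left out, arrays picked for their likeness to the other of these groups. Leaving out single arrays gave 263 to 508, 969 to 1673 and 523 to 1310 against control, 1344 to 2180 and 777 to 1675 for BNF against D3T and OLT, and 0 to 236 between OLT and D3T. The cause of these shifts was not tested. Of all BNF calls 42.0% were higher and 57.7% after centring; for OLT these shares were 24.0% and 56.1%, and for BNF against OLT 55.4% and 41.6%.

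With the replicate number as a block, 0, 3 and 0 members were called against control, 3 and 4 for BNF against D3T and OLT and 0 between OLT and D3T, as without it, and 419, 1578, 870, 1952, 1285 and 0 probe sets. Of 30 same-numbered pairs of arrays 11 had correlated deviations above 0.1 (median 0.06), and 2 of 20 arrays had their closest array of another diet under their own number, so the number was not taken as pairing. The stricter filter dropped Ppargc1a, which has no value there.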
